A study of Homo sapiens with 8 samples.

Results

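The protein arginine methyltransferase (PRMT) family was examined in bulk RNA-seq of 2 human acute myeloid leukemia (AML) lines, labelled Molm13 and THP1. Both names are those of established monocytic lines with MLL fusions. Marker levels that bear on the THP1 label are given below. The 9 genes of the family are PRMT1, PRMT2, PRMT3, CARM1 (PRMT4), PRMT5, PRMT6, PRMT7, PRMT8 and PRMT9. They were taken by symbol from the 57992 genes listed for Molm13, and all 9 identifiers were also present in the THP1 table. The cells of every group received doxycycline, which induced a control shRNA (shCtrl, labelled wild type) or an shRNA against PRMT9 (shPRMT9, labelled PRMT9 knockdown). The 4 groups, Molm13 shCtrl, Molm13 shPRMT9, THP1 shCtrl and THP1 shPRMT9, held 2 libraries each, and 18720950 to 27356870 reads per library were counted on genes. The labels number the libraries of a group 1 and 2 without stating whether these were separate cultures or separate hairpins, so P values measure only the spread between these libraries. The duration of induction was not given in the sources used here.

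PRMTs transfer methyl groups from S-adenosylmethionine to arginine side chains. Type I enzymes (PRMT1, PRMT2, PRMT3, CARM1, PRMT6 and PRMT8) form asymmetric dimethylarginine, type II enzymes (PRMT5 and PRMT9) form symmetric dimethylarginine, and PRMT7, the type III enzyme, stops at monomethylarginine. Histone tails, RNA-binding proteins and spliceosomal proteins are their best-known substrates, and in leukemia PRMT1 and PRMT5 are known for sustaining transforming transcription and splicing programs. PRMT9 is known for methylating the splicing factor SF3B2.

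The myeloid genes fixed for checking the lines (CD33, SPI1, CEBPA, LYZ, MPO, CSF1R, CD14 and ITGAM) summed to 1281 to 1886 CPM (counts scaled to library size) in Molm13 and 2636 to 4103 in THP1, and in both lines the higher values were those of the shPRMT9 libraries. The sum was carried by LYZ, at 634 CPM in both shCtrl libraries and 986 and 1010 CPM in the shPRMT9 libraries of Molm13, and at 1890 CPM in both and 3180 and 3020 CPM in THP1. The list did not move one way, since MPO was lower in the shPRMT9 libraries of both lines (60.6 and 61.6 against 39.9 and 42.3 CPM in Molm13, and 8.22 and 6.81 against 4.32 and 4.21 CPM in THP1), and CEBPA was higher in those of Molm13 (377 and 381 against 441 and 425 CPM) but lower in those of THP1 (357 and 346 against 328 and 319 CPM). CD33, SPI1, CSF1R, CD14 and ITGAM were higher in the shPRMT9 libraries of both lines, CD14 with only 4 to 8 counts in Molm13. CSF1R went from 15 and 14.3 to 60.6 and 60.9 CPM in Molm13 and from 68.3 and 67.7 to 138 and 141 CPM in THP1. ITGAM went from 30.9 and 29.3 to 115 and 117 CPM in Molm13 and from 23.5 and 22.7 to 52.3 and 50.5 CPM in THP1. T-cell genes (CD3D, CD3E and CD2) summed to at most 0.212 CPM and the erythroid gene HBB was at most at 0.234 CPM. Of the B-cell genes, PAX5 was at 38.6 to 42.5 CPM in Molm13 and 2.49 to 11.9 CPM in THP1, whereas CD79A and MS4A1 each stayed below 1 CPM in all 8 libraries. MEIS1, usually expressed with HOXA9 in MLL-rearranged AML, was at 71.2 to 87.2 CPM in Molm13 but at 0.145 to 0.365 CPM in THP1, where the library names also carry the letters OCI, a prefix of other leukemia and lymphoma lines. HOXA9 itself was at 62 to 75.1 CPM in Molm13 and 53.2 to 62 CPM in THP1. FLT3, also fixed for checking MLL fusion leukemia, was at 350 to 429 CPM in Molm13 and 48.3 to 56.7 CPM in THP1. HOXB3 and HOXB4 together reached 11.04 to 13.93 CPM in THP1 and at most 0.318 CPM in Molm13. The part of cell identity or of differentiation state in the results below was not tested.

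PRMT9, the targeted gene, lies on the minus strand of chr4:147637785-147684230 on GRCh38. PRMT9 had 332 and 289 counts in Molm13 shCtrl and 41 and 56 in Molm13 shPRMT9. In THP1, it had 317 and 352 counts with shCtrl and 60 and 68 with shPRMT9. All 4 shPRMT9 libraries therefore lay below all 4 shCtrl libraries. Scaled by exon length and library size as RPKM, PRMT9 fell from 3.86 ± 0.267 to 0.597 ± 0.081 in Molm13 and from 3.12 ± 0.069 to 0.641 ± 0.063 in THP1 (SD, n = 2 libraries). The residual level was 14.0% and 17.0% of the shCtrl mean in the Molm13 libraries and 19.1% and 22.0% in the THP1 libraries. With edgeR's quasi-likelihood test and Benjamini-Hochberg adjustment over all genes, the change was a log2 fold change of -2.68 ± 0.14 (SE, adjusted P = 1.2e-21) in Molm13 and -2.29 ± 0.13 (adjusted P = 3.5e-14) in THP1. The depth of knockdown did not differ detectably between the lines, since the difference (THP1 minus Molm13) was 0.40 on the log2 scale with a 95% CI from -0.04 to 0.84 (adjusted P = 0.15). By the size of its fall, PRMT9 ranked 7 among 16446 genes tested in Molm13 and 9 among 16294 in THP1.

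The promoter windows of the 4 members that changed most in Molm13 are shown here because the study named CREB1, which binds cyclic AMP response elements, as a regulator of PRMT9. Each window runs 5′ to 3′ on the strand of the gene from 250 bases before to 50 bases after the RefSeq start on GRCh38.p14, and capitals mark the core TGACG or its reverse complement CGTCA. The windows are chr4:147684114-147684413 (PRMT9, minus strand), chr21:46635424-46635723 (PRMT2, plus strand), chr11:20387466-20387765 (PRMT3, plus strand) and chr1:107056424-107056723 (PRMT6, plus strand).
PRMT9: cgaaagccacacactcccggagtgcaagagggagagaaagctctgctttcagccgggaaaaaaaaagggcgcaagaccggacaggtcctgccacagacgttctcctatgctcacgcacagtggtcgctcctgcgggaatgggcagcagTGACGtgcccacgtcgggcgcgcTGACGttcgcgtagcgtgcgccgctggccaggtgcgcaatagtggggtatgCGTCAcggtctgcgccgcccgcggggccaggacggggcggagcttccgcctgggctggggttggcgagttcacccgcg
PRMT2: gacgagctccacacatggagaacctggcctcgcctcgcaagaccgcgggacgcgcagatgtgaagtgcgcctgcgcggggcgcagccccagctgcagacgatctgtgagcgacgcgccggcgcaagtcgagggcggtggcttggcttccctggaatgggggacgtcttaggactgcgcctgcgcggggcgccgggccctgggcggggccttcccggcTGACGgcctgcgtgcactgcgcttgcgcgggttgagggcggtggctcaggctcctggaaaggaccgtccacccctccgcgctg
PRMT3: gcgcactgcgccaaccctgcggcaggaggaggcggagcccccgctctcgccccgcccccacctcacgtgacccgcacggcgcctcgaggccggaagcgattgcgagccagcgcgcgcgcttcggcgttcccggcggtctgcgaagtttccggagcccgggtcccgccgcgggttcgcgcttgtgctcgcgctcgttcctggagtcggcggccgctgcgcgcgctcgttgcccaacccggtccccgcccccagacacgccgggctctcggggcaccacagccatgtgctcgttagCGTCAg
PRMT6: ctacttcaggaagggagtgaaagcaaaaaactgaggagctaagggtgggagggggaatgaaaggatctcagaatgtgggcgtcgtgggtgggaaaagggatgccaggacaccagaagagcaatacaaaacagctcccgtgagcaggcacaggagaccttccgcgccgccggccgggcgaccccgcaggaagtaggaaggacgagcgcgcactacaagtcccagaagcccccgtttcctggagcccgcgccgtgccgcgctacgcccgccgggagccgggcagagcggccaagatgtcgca
The PRMT9 window held 3 such cores, at positions 149, 172 and 223 of 300, the PRMT2, PRMT3 and PRMT5 windows held 1 each, and those of the other members held 0. Of 35116 RefSeq promoter windows of this length, 24.6% held at least 1 core on either strand and 1.40% held at least 3. None of the 12 windows of the 9 members held the full palindrome TGACGTCA (1.85% of all windows), the interferon-type motif GAAANNGAAA (3.57%) or the STAT-type motif TTCNNNGAA (7.66%). Such matches are descriptions of letters and are not measured binding. CREB1 itself fell slightly in Molm13 by edgeR (log2 fold change -0.12 ± 0.04, adjusted P = 0.014), which DESeq2 did not call, and was at -0.05 ± 0.05 (adjusted P = 0.45) in THP1.

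Baseline levels were compared per length in the shCtrl libraries, as RPKM with the exon length of the Molm13 table. In Molm13, PRMT5 was highest at 44.2 ± 0.366 (SD, n = 2), followed by PRMT1 at 36.8 ± 0.386 and CARM1 at 18.3 ± 0.415. PRMT3 at 7.70 ± 0.153, PRMT6 at 6.41 ± 0.131 and PRMT7 at 5.18 ± 0.438 came next. PRMT9 at 3.86 ± 0.267 and PRMT2 at 3.83 ± 0.027 closed the order and were not told apart, because their libraries overlapped. The other neighbours in this order did not overlap. In THP1, the order was PRMT5 (41.7 ± 0.18), PRMT1 (36.5 ± 0.936), PRMT6 (29.6 ± 0.166), CARM1 (22.1 ± 0.438), PRMT3 (6.53 ± 0.331), PRMT2 (4.401 ± 0.109), PRMT7 (3.32 ± 0.111) and PRMT9 (3.12 ± 0.069), with no overlap between neighbours. PRMT8, a type I enzyme known for its expression in brain, had 1 count in 1 THP1 shCtrl library and 0 in the other 7 libraries, and a count of 0 allows up to 0.0165 to 0.0241 RPKM (3 counts per library, counting error only). PRMT8 was therefore not tested.

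**Figure D1:**
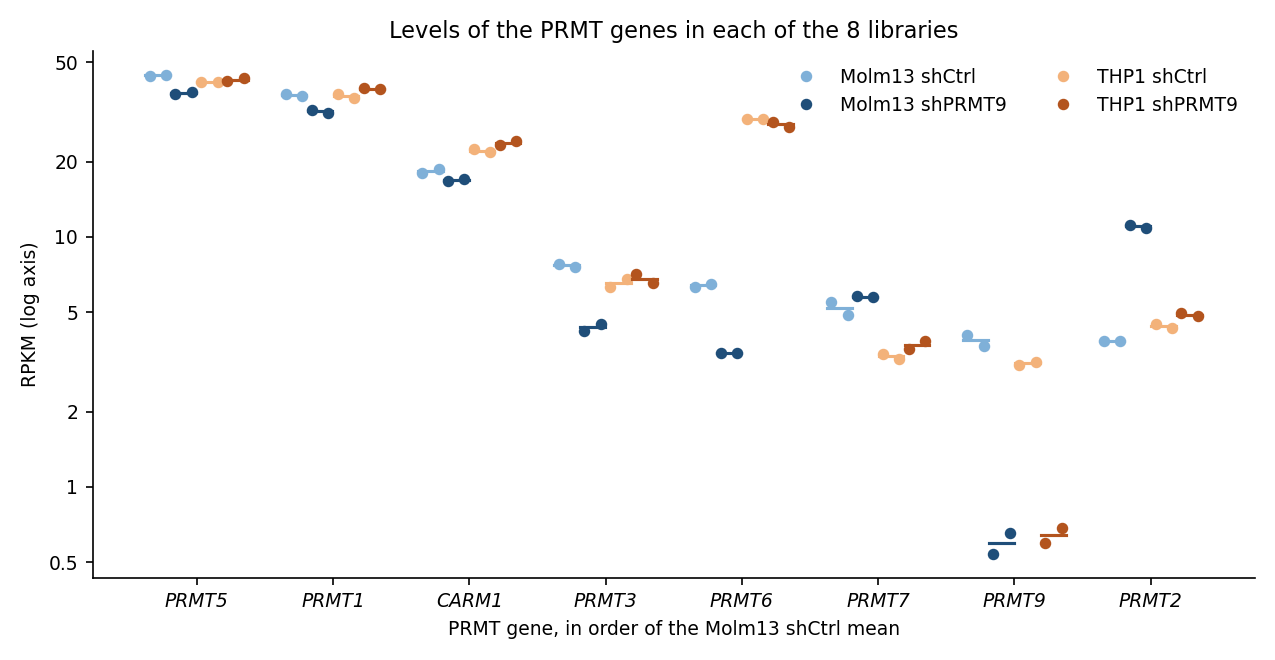
RPKM on a log axis for 8 PRMT genes in each of the 8 libraries (points, n = 2 per group) with the group mean as a line; PRMT8 had at most 1 count and is left out. PRMT9 is low in the 4 shPRMT9 libraries, PRMT2 is raised in the Molm13 shPRMT9 libraries, and PRMT6 is higher in THP1 than in Molm13.

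The exon length of this table joins all transcripts of a gene, which lowers the RPKM of genes with many long alternative exons. PRMT1, for example, has 4796 joined exon bases and a principal transcript of 1393 bases. With the length of the longest APPRIS principal transcript in GENCODE 29, an alternative added after the data were seen, PRMT1 came first in both lines (127 RPKM in Molm13 and 126 in THP1) and PRMT5 second (60.6 and 57.1). PRMT9 then came eighth in both lines (4.398 and 3.56), ahead of PRMT8. In THP1, PRMT6 and CARM1 were then not told apart (29.6 RPKM for each).

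Between the lines, PRMT6, a type I enzyme that methylates histone H3 at arginine 2, differed most. It had 337 and 333 counts in Molm13 shCtrl and 1996 and 2131 in THP1 shCtrl, which gave a 4.62-fold higher level in THP1 (log2 difference 2.21 ± 0.06, adjusted P = 4.2e-53). PRMT7 was lower in THP1 (log2 difference -0.64 ± 0.06, adjusted P = 4.6e-17), as were PRMT9 (-0.31 ± 0.09, adjusted P = 0.0024), PRMT3 (-0.24 ± 0.06, adjusted P = 2.9e-04) and PRMT5 (-0.08 ± 0.04, adjusted P = 0.023). CARM1 (0.28 ± 0.04, adjusted P = 7.3e-09) and PRMT2 (0.20 ± 0.06, adjusted P = 0.0023) were higher. PRMT1 was indistinguishable at this spread, with a 95% CI from -0.08 to 0.06. Thus 7 of 8 members tested were called at FDR below 0.05, against 82.8% of all 19288 genes, and 1 had a fold above 2, against 46% of all genes. The median absolute difference was 0.26 for the members and 0.90 for all genes. The call for PRMT5 was lost in 9 of 14 alternatives (adjusted P from 0.0075 to 0.19 over all of them), among them the fits without any 1 of the 4 shCtrl libraries (-0.09 to -0.06), without Molm13 shPRMT9 library 2 (-0.08) and without THP1 shPRMT9 library 2 (-0.07), and the fit with DESeq2 (-0.09, adjusted P = 0.0595). That of PRMT9 was lost in 2 of 14, without Molm13 shCtrl library 1 (-0.23, adjusted P = 0.077) and with DESeq2 (-0.31, adjusted P = 0.066), with a range over the alternatives of 0.0016 to 0.077. DESeq2 thus called 5 of the 8 members, beside 14584 of all 19288 genes. The lines come in separate tables, so differences of line, sequencing and counting cannot be told apart.

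Whether the other members changed with PRMT9 knockdown was then asked within each line. A gene was called at FDR below 0.05. It was a differentially expressed gene (DEG) if it was also changed by more than 1.5-fold in either direction and reached more than 1 RPKM in some library. In Molm13, 8 of 8 members tested were called, against 66.9% of all genes, with 2 higher (33.4% of all genes) and 6 lower (33.5%). DESeq2 called 6 of 8, without CARM1 (-0.10, adjusted P = 0.20) and PRMT7 (0.16, adjusted P = 0.10), against 50.6% of all genes. Without shCtrl library 2, edgeR put CARM1 at -0.08 and PRMT7 at 0.08. 4 members were DEGs, namely PRMT9, PRMT2, PRMT6 and PRMT3, against 22.8% of all genes. The libraries of the groups did not overlap for 8 of 8, against 81.9% of all genes. In THP1, 2 of 8 were called (37.6% of all genes), with PRMT1 higher (19% of all genes) and PRMT9 lower (18.6%), and DESeq2 called 1, PRMT9, against 26.1% of all genes. PRMT9 was the DEG among them (6.22% of all genes), and the groups did not overlap for 6 of 8 (66% of all genes). Without PRMT9, 7 of 7 members were called in Molm13 and 1 of 7 in THP1. The median log2 fold change of the members was -0.22 in Molm13 and 0.07 in THP1, against 0.00047 and -0.00063 over all genes.

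**Figure D2:**
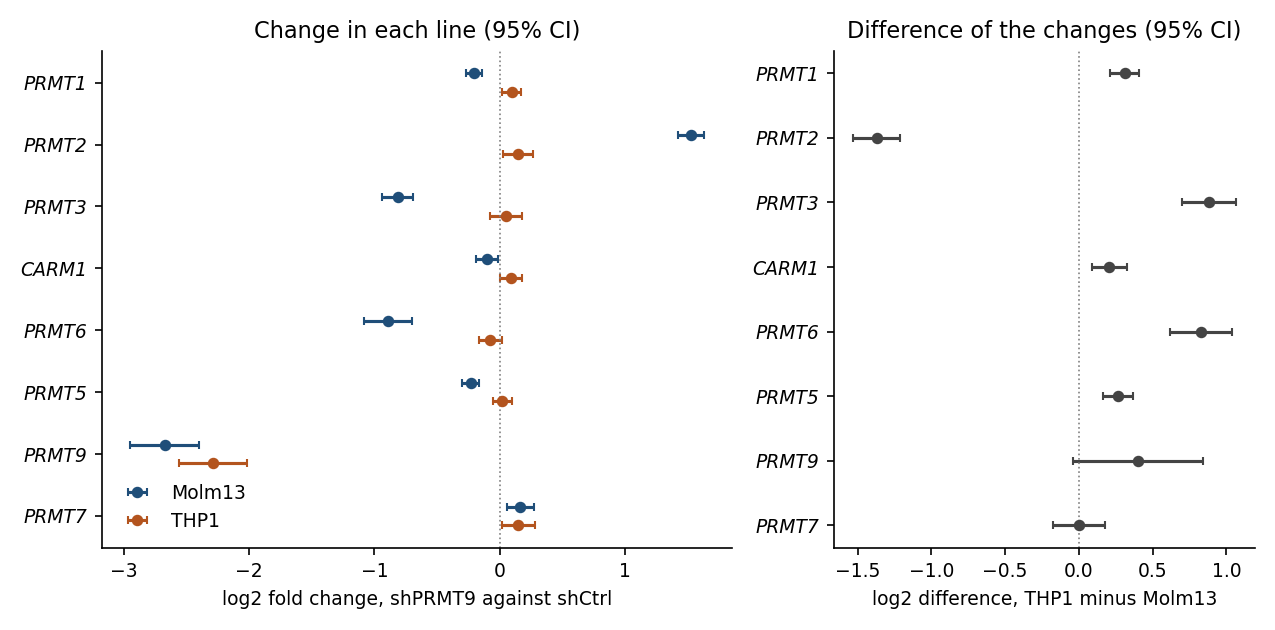
Log2 fold change of shPRMT9 against shCtrl in each line (left, points with 95% CI) and the difference of these changes, THP1 minus Molm13, from the fit of all 8 libraries (right, points with 95% CI), for the 8 members tested. PRMT2, PRMT3 and PRMT6 lie away from 0 in Molm13 and near 0 in THP1, whereas PRMT9 falls in both lines.

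Among the type I enzymes, PRMT2 showed the largest change after PRMT9. PRMT2, a weak methyltransferase with an SH3 domain that acts as a coactivator of nuclear receptors, lies at chr21:46635167-46665124 on the plus strand. It had 625 and 606 counts in Molm13 shCtrl and 1701 and 1845 in Molm13 shPRMT9, or 3.82 and 3.85 RPKM against 11.2 and 10.8. The level rose 2.88-fold (log2 fold change 1.53 ± 0.05, adjusted P = 2.6e-28). In THP1, it was at 4.48 and 4.32 RPKM with shCtrl and 4.94 and 4.83 with shPRMT9 (log2 fold change 0.14 ± 0.06, adjusted P = 0.055). The change therefore differed between the lines, by -1.37 ± 0.08 on the log2 scale (THP1 minus Molm13, adjusted P = 4.5e-28). With the deposited lengths, in Molm13 shPRMT9 PRMT2 exceeded PRMT3, PRMT6, PRMT7 and PRMT9, all of which lay at or above it with shCtrl, and its share of the summed RPKM of the family went from 3.04% to 9.88%.

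PRMT6 and PRMT3 fell in Molm13. PRMT6 was at 6.32 and 6.50 RPKM with shCtrl and 3.44 and 3.43 with shPRMT9, a 1.86-fold fall (log2 fold change -0.89 ± 0.09, adjusted P = 2.9e-11). In THP1, PRMT6 was at 29.7 and 29.5 RPKM with shCtrl and 28.8 and 27.6 with shPRMT9 (-0.07 ± 0.05, adjusted P = 0.21). The groups did not overlap in either line, but the change in THP1 was not called. PRMT3, a cytosolic enzyme that methylates the ribosomal protein RPS2, was at 7.81 and 7.59 RPKM with shCtrl and 4.19 and 4.5 with shPRMT9 in Molm13, a 1.76-fold fall (-0.82 ± 0.06, adjusted P = 2.1e-15). In THP1, its shCtrl libraries (6.29 and 6.76 RPKM) overlapped its shPRMT9 libraries (7.08 and 6.52), and the change was 0.05 ± 0.06 (adjusted P = 0.56). The differences between the lines were 0.83 ± 0.11 (adjusted P = 8.5e-11) for PRMT6 and 0.88 ± 0.09 (adjusted P = 2.6e-14) for PRMT3.

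**Figure D3:**
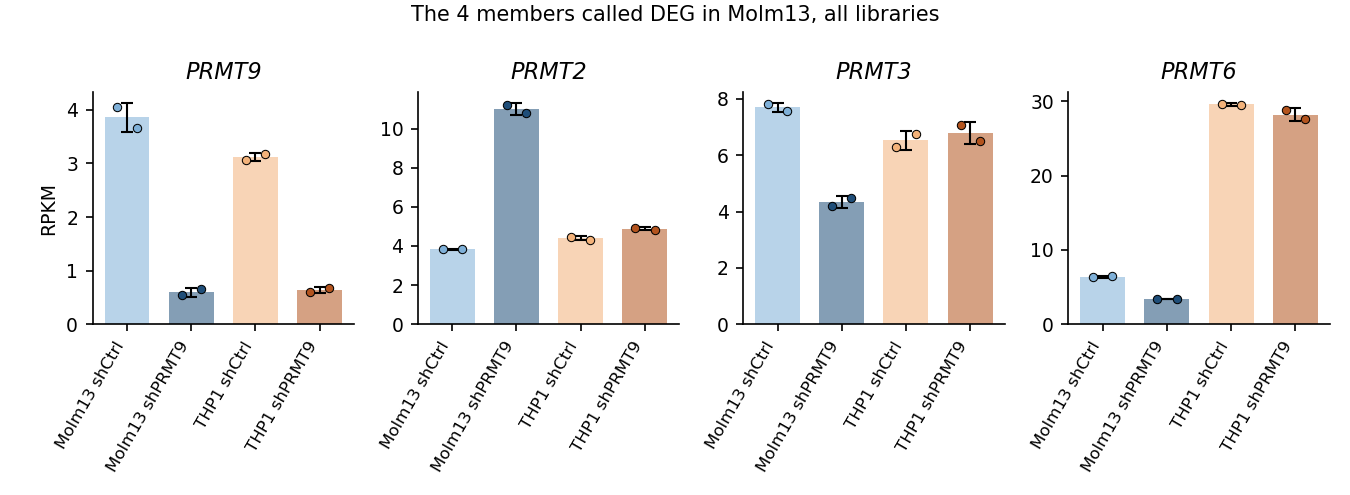
RPKM of the 4 members called DEG in Molm13, with bars for the mean and error bars for the SD of 2 libraries per group, points for the libraries and axes starting at 0. PRMT9 is lower with shPRMT9 in both lines, whereas PRMT2 is higher and PRMT3 and PRMT6 are lower with shPRMT9 in Molm13 and close to shCtrl in THP1.

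PRMT1, which makes most of the asymmetric dimethylarginine of cells, changed little. PRMT1 was at 37.1 and 36.5 RPKM with shCtrl and 32.2 and 31.4 with shPRMT9 in Molm13 (log2 fold change -0.20 ± 0.03, adjusted P = 4.1e-07). In THP1, it was at 37.2 and 35.8 RPKM with shCtrl and 39.4 and 38.9 with shPRMT9 (0.09 ± 0.04, adjusted P = 0.039). The THP1 call of PRMT1 rested on single libraries and on the test, since with DESeq2 the value was 0.09 (adjusted P = 0.12), without shCtrl library 2 the value was 0.06 (adjusted P = 0.39), without shPRMT9 library 1 it was 0.09 (0.11) and without shPRMT9 library 2 it was 0.10 (0.059), and it was called in 3 of 10 alternatives (adjusted P from 0.011 to 0.39). CARM1, a transcriptional coactivator that methylates histone H3 and splicing factors, was at 18.0 and 18.6 RPKM with shCtrl and 16.7 and 17.1 with shPRMT9 in Molm13 (-0.10 ± 0.04, adjusted P = 0.031). Without Molm13 shCtrl library 2 and without shPRMT9 library 1 or library 2, the CARM1 value was -0.08 (adjusted P = 0.20), -0.08 (0.20) and -0.11 (0.091), and with DESeq2 it was -0.10 (0.20), within a range of 0.017 to 0.20 over 10 alternatives. In THP1, CARM1 was at 22.4 and 21.8 RPKM with shCtrl and 23.2 and 24.1 with shPRMT9 (0.09 ± 0.04, adjusted P = 0.091). The difference between the lines was called for both PRMT1 (0.31 ± 0.05, adjusted P = 3.7e-08) and CARM1 (0.21 ± 0.06, adjusted P = 0.0028), the latter in 9 of 14 alternatives (adjusted P from 0.0055 to 0.099). It was lost for CARM1 without Molm13 shCtrl library 2 (0.14, adjusted P = 0.099), Molm13 shPRMT9 library 1 (0.16, 0.071), THP1 shCtrl library 2 (0.15, 0.071) and THP1 shPRMT9 library 2 (0.14, 0.067), and with DESeq2 (0.18, 0.058).

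Of the type II enzymes, PRMT5, which methylates Sm proteins and histones in a complex with WDR77, was at 43.9 and 44.5 RPKM with shCtrl and 37.1 and 37.8 with shPRMT9 in Molm13, a small fall without overlap (log2 fold change -0.23 ± 0.03, adjusted P = 5.5e-08). In THP1, PRMT5 was at 41.8 and 41.6 RPKM with shCtrl and 41.9 and 43.0 with shPRMT9 (0.02 ± 0.04, adjusted P = 0.72), and the difference between the lines was 0.26 ± 0.05 (adjusted P = 5.1e-06). No rise of PRMT5, the other type II enzyme, accompanied the loss of PRMT9 RNA in either line at this spread, since the 95% CI ran from -0.30 to -0.16 in Molm13 and from -0.06 to 0.10 in THP1. PRMT7, the type III enzyme, was at 5.49 and 4.87 RPKM with shCtrl and 5.82 and 5.73 with shPRMT9 in Molm13 (0.16 ± 0.05, adjusted P = 0.0069). In THP1, PRMT7 was at 3.40 and 3.25 RPKM with shCtrl and 3.57 and 3.83 with shPRMT9 (0.15 ± 0.06, adjusted P = 0.065), so that the change differed by -0.000235 between the lines (95% CI from -0.17 to 0.17). Without Molm13 shCtrl library 2, the PRMT7 value was 0.08 (adjusted P = 0.23), and with DESeq2 it was 0.16 (adjusted P = 0.10, range over 10 alternatives 2.5e-04 to 0.23). In THP1 without shPRMT9 library 1, PRMT7 was called (0.20, adjusted P = 0.026). With all 8 libraries, the difference in effect between the lines was called for 6 of 8 members, against 42.2% of all genes, and by DESeq2 for 5, without CARM1. DESeq2 called this difference for 6447 of all 19288 genes.

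Summed over the 9 members, the family held 126 RPKM in both Molm13 shCtrl libraries and 111 in both shPRMT9 libraries, and 146 to 148 in THP1 shCtrl and 149 in both shPRMT9 libraries. Type II enzymes, the targeted PRMT9 included, went from 48.0 and 48.1 RPKM to 37.6 and 38.5 in Molm13 and from 44.9 and 44.7 to 42.5 and 43.7 in THP1. Of these, the mean of PRMT5 went from 44.2 to 37.4 RPKM in Molm13 and from 41.7 to 42.4 in THP1. That of PRMT9 went from 3.86 to 0.597 RPKM in Molm13 and from 3.12 to 0.641 in THP1. Type I enzymes went from 73.0 RPKM in both shCtrl libraries to 67.8 and 67.3 in Molm13. In THP1 they went from 100.1 and 98.2 to 103.4 and 101.9. In bulk RNA, fewer cells of a type and less RNA per cell cannot be told apart.

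Genes that overlap a member or lie within 5 kb of it were compared because the strand setting of the counting was not given in the sources used here. PRMT9 shares 34260 bases of span with TMEM184C on the opposite strand, but 0 exon bases in GENCODE 29. TMEM184C rose in both lines, from 739 and 740 counts to 1003 and 1117 in Molm13 (log2 fold change 0.52 ± 0.05, adjusted P = 1.6e-11) and from 1192 and 1215 to 2253 and 2160 in THP1 (0.97 ± 0.05, adjusted P = 2.2e-15), opposite in direction to PRMT9. PRMT5 shares 938 exon bases with the antisense gene PRMT5-AS1, whose 57, 33, 14 and 33 counts in Molm13 (-0.94 ± 0.29, adjusted P = 0.0049 by edgeR and 0.092 by DESeq2) were few beside 2428 to 3108 of PRMT5. CARM1 shares 886 exon bases with YIPF2 on the opposite strand, which rose in Molm13 (0.29 ± 0.06, adjusted P = 9.6e-05), whereas CARM1 fell. PRMT7 shares 239 exon bases with SMPD3 on the opposite strand (4 to 99 counts), and PRMT1 shares 366 with ADM5 (24 to 57 counts) and 171 with CTB-33G10.6 (0 counts). Reads in such shared bases could have been assigned to either gene or dropped.

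The neighbours without shared exon bases moved in various directions. Near PRMT1, BCL2L12 was at -0.21 ± 0.08 (adjusted P = 0.023 by edgeR and 0.22 by DESeq2) in Molm13 and 0.03 ± 0.06 (0.71) in THP1, and CPT1C at 0.14 ± 0.28 (0.75) in THP1. HTATIP2, near PRMT3, was at 0.0045 ± 0.10 (0.97) in Molm13 and rose in THP1 (0.50 ± 0.05, 3.9e-09). C19orf38, near CARM1, rose in Molm13 (1.49 ± 0.19, 2.9e-09) and in THP1 by edgeR (0.68 ± 0.18, 0.0041, with 0.066 by DESeq2). Near PRMT7, SLC7A6OS fell in Molm13 by edgeR (-0.24 ± 0.07, 0.0026, with 0.072 by DESeq2) and rose in THP1 (0.26 ± 0.07, 0.0029). RBM23, near PRMT5, did not differ detectably (-0.03 ± 0.04 and -0.06 ± 0.04, adjusted P = 0.56 and 0.29). MIR5088, RNU4-30P, RP11-476M19.1 and RP11-476M19.3 had 0 counts, and DSTNP1, RP11-298I3.1 and RP11-96D1.3 had at most 1, 11 and 15. No other gene lay within 5 kb of PRMT6.

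The copies PRMT1P1 and PRMT5P1 had 274, 262, 173 and 217 and 77, 75, 56 and 83 counts in Molm13, but at most 2 and 0 in THP1. PRMT1 and PRMT5 can share reads with these pseudogenes, and how such reads were assigned was not tested. CARM1P1 had 0 to 4 counts per library.

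Genes that work with the PRMTs were taken from lists of partners, the methyl donor cycle, methylarginine readers, deimination and methylarginine breakdown, and substrates. Over the lists together, 52 of 65 genes tested were called in Molm13 (16 higher and 36 lower) and 36 of 65 in THP1 (18 higher and 18 lower), which is 80.0% and 55.4% against 66.9% and 37.6% of all genes. DESeq2 called 45 and 25 of the 65, against 50.6% and 26.1% of all genes. Their median log2 fold changes were -0.15 and -0.01. These lists were described by counts, without a test of the lists.

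Among PRMT partners, 6 of 6 were called in Molm13 (2 higher and 4 lower, median -0.35) and 4 of 6 in THP1 (3 higher and 1 lower, median 0.04). The shares over all genes were 66.9% and 37.6%. DESeq2 called 6 of the partners in Molm13 and 2 in THP1, against 50.6% and 26.1% of all genes. WDR77, the PRMT5 cofactor, fell from 40.6 ± 0.321 to 19.9 ± 0.729 CPM in Molm13 (SD, n = 2), a 2.04-fold fall (log2 fold change -1.03 ± 0.07), and was at 45.6 ± 0.155 and 42.8 ± 1.51 CPM in THP1 (-0.10 ± 0.06, adjusted P = 0.17). COPRS, which recruits PRMT5 to histones, fell 1.65-fold in Molm13 (-0.73 ± 0.08) and was not called in THP1 (-0.05 ± 0.06, adjusted P = 0.60). BTG2, an antiproliferative partner of PRMT1, rose 3.41-fold in Molm13 (1.77 ± 0.04) and 2.06-fold in THP1 (1.04 ± 0.09).

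Of the methyl donor cycle, 10 of 13 genes tested were called in Molm13 (2 higher and 8 lower, median -0.32) and 7 of 13 in THP1 (2 higher and 5 lower, median -0.05). Over all genes, 66.9% and 37.6% were called. DESeq2 called 9 of 13 and 3 of 13, against 50.6% and 26.1% of all genes. SRM, spermidine synthase, fell 1.76-fold in Molm13 (-0.82 ± 0.04) and did not pass in THP1 (-0.04 ± 0.04, adjusted P = 0.46). MAT2A, which makes S-adenosylmethionine, fell from 499.0 ± 8.79 to 358 ± 0.887 CPM in Molm13 (-0.47 ± 0.03) and more weakly in THP1 (-0.10 ± 0.03, adjusted P = 0.0066). MTAP, which recycles methylthioadenosine and whose loss is known to sensitize cells to PRMT5 inhibition, was at 43.2 ± 2.19 CPM in Molm13 shCtrl and 1.498 ± 0.135 CPM in THP1 shCtrl, and was not called with shPRMT9 in either line (-0.05 ± 0.06 and -0.30 ± 0.28, adjusted P = 0.47 and 0.46).

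Of the methylarginine readers, 3 of 6 were called in Molm13 (2 higher and 1 lower) and 0 of 6 in THP1 by edgeR, where 0 also had an unadjusted P below 0.05 and DESeq2 called 0. Beside these counts, edgeR called 66.9% and 37.6% of all genes, and DESeq2 called 26.1% in THP1. SMNDC1, a splicing factor with a Tudor domain, fell 1.54-fold in Molm13 (-0.62 ± 0.05), and SND1 rose slightly (0.18 ± 0.03). Of the deimination and breakdown list, 4 of 9 genes had enough counts for the test, of which 3 were called in Molm13 and 4 in THP1 by edgeR, and 1 and 3 by DESeq2. Shares over all genes were 66.9% and 37.6% by edgeR and 50.6% and 26.1% by DESeq2. DDAH2 rose 2.95-fold in Molm13 (1.56 ± 0.07) but fell in THP1 (-0.45 ± 0.08), a difference of -1.99. DDAH1 was at 0.60 ± 0.017 CPM in Molm13 shCtrl and fell in THP1 (-0.51 ± 0.08). METTL23 (0.16 ± 0.08 and 0.15 ± 0.07, adjusted P = 0.076 and 0.077) and NDUFAF7 (0.01 ± 0.06 and 0.04 ± 0.08, adjusted P = 0.85 and 0.72), arginine methyltransferases outside the family, were not called in either line.

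The list of PRMT9 substrates comes in part from proteomics of Molm13 cells with PRMT9 knockdown in the same study, and not from these libraries. In Molm13, 10 of 14 were called (2 higher and 8 lower, median -0.14), and in THP1 9 of 14 (7 higher and 2 lower, median 0.10). These counts stand against 66.9% and 37.6% of all genes. DESeq2 called 9 and 8 of the 14, against 50.6% and 26.1% of all genes. Of the genes encoding substrates central to the study, PABPC1 fell slightly in Molm13 (-0.11 ± 0.02) and more in THP1 (-0.39 ± 0.03), and XRN2 fell in Molm13 (-0.20 ± 0.03) but rose in THP1 (0.17 ± 0.03). DDX3X likewise fell in Molm13 (-0.46 ± 0.03) and rose in THP1 (0.16 ± 0.03). SF3B2 fell in Molm13 (-0.23 ± 0.03) and was not called in THP1 (0.04 ± 0.03, adjusted P = 0.37). VIM, encoding vimentin, rose in both lines (1.31 ± 0.02 in Molm13 and 1.27 ± 0.03 in THP1), in Molm13 from 802 ± 3.05 to 1984 ± 14.7 CPM. ELAVL1, an RNA-binding protein, fell 1.63-fold in Molm13 (-0.71 ± 0.03) and was at -0.12 ± 0.04 in THP1 (adjusted P = 0.014 by edgeR and 0.058 by DESeq2).

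Of the substrates of other PRMTs, 19 of 19 were called in Molm13 (5 higher and 14 lower, median -0.21) and 12 of 19 in THP1 (5 higher and 7 lower, median -0.04). These counts stand against 66.9% and 37.6% of all genes. DESeq2 called 17 and 9 of the 19, against 50.6% and 26.1% of all genes. ALYREF, an RNA export factor, fell 2.20-fold in Molm13 (-1.14 ± 0.04), and its value in THP1 was -0.04 ± 0.04 (adjusted P = 0.49). SNRPD3, an Sm protein methylated by PRMT5, fell in both lines (-0.76 ± 0.04 and -0.53 ± 0.04). G3BP1, a stress granule protein, fell 1.504-fold in Molm13 (-0.59 ± 0.03) and less in THP1 (-0.13 ± 0.03). NCL, nucleolin, fell in Molm13 (-0.46 ± 0.02) and was not called in THP1 (0.02 ± 0.03, adjusted P = 0.63).

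**Figure D4:**
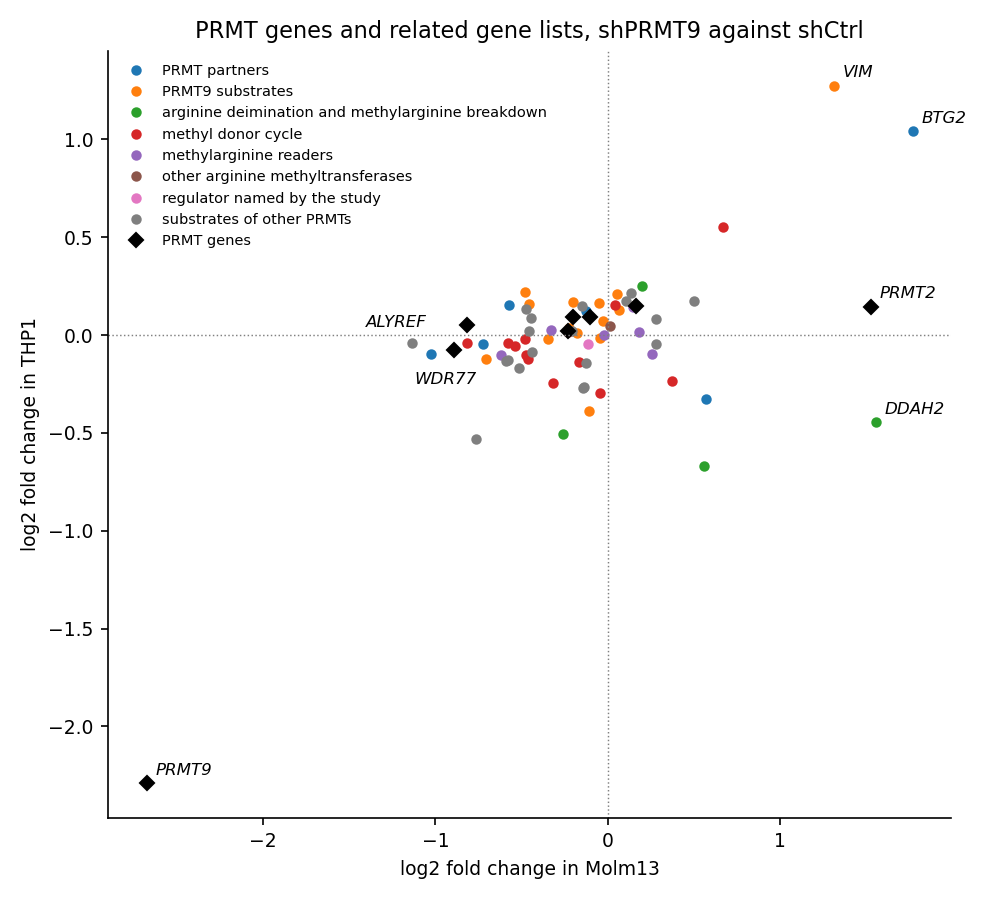
Log2 fold change of shPRMT9 against shCtrl in Molm13 (horizontal) and THP1 (vertical) for the members (black diamonds) and the genes of the related lists (circles, colour by list), without error bars. BTG2 and VIM lie high in both lines, and PRMT2 and DDAH2 lie far to the right, at 0.14 and -0.45 on the vertical axis.

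The genes whose profile over the 8 libraries lay closest to that of PRMT9, by the root mean square difference of log2 CPM deviations from each gene's own mean, were SLC35B2 (0.42), HMGB2 (0.43), VKORC1L1 (0.48), PRELID3B (0.51) and RPIA (0.55). For PRMT2 they were RNASET2 (0.089), HPCAL1 (0.097) and HIST1H3H (0.099), for PRMT3 KPNA1 (0.039), SELK (0.041) and UBLCP1 (0.054), and for PRMT6 TNFRSF21 (0.11), MAN1A1 (0.13) and FAM3C (0.15). The own deviation of PRMT9 was 1.15, that of PRMT2 0.59, that of PRMT3 0.31 and that of PRMT6 1.32. The distance of even the nearest gene from PRMT9 was therefore larger than that of the nearest genes from the other 3.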

How the data were processed

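Bulk RNA-seq of 8 libraries was analysed. Per the labels, poly(A) RNA libraries were made with a Kapa mRNA HyperPrep kit from RNA with an integrity number above 8 and sequenced on a HiSeq 2500. The submitters' processing notes name TopHat2 2.0.8, HTSeq 0.11.2, edgeR 3.30.3 and hg38. The authors deposited read counts per gene, whole numbers without normalization, in a table per line. The annotation and strand setting are not given in the sources used here.

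Each line was fitted alone, and all 8 libraries together for the difference of effects and the baseline, in R 4.3.3 with edgeR 4.0.16 (TMM, filterByExpr, glmQLFit and glmQLFTest, Benjamini-Hochberg). Standard errors were obtained from log2 fold changes and F values, as |log2 FC|/√F. RPKM and CPM values used TMM sizes over the 8 libraries. limma 3.58.1 and DESeq2 1.42.0 were installed, and DESeq2 served as an alternative. The fits were tested on simulated data. Promoters are those of RefSeq.

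The members and the lists were chosen with earlier results of these data known. The named genes were the members, list genes called DEG in either line (at most 5 per list, or the 2 of smallest FDR), PABPC1, XRN2, DDX3X, SF3B2, MAT2A, MTAP, WDR77 and CREB1, neighbours within 5 kb, and the genes nearest in profile to PRMT9 (5) and to the other DEG members (3). Some genes chosen by these rules are left out of the text.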

Additional observations from a re-analysis of the deposited data

Results flagged for a closer look

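For 6 members, the response to shPRMT9 was not the same in Molm13 and THP1 by a test of the difference in the fit of all 8 libraries (THP1 minus Molm13, on the log2 scale, edgeR, FDR below 0.05). By the same test, 42.2% of all genes were called. The differences were -1.37 for PRMT2, 0.88 for PRMT3, 0.83 for PRMT6, 0.31 for PRMT1, 0.26 for PRMT5 and 0.21 for CARM1. The difference for CARM1 was called in only 9 of 14 alternatives, and its value ran from 0.14 to 0.21 over them. DESeq2 was among those that lost the call (0.18, adjusted P = 0.058). The Molm13 change was larger in size than the THP1 change for PRMT1, PRMT2, PRMT3, PRMT5 and PRMT6. For CARM1, the estimates were -0.10 ± 0.04 in Molm13 and 0.09 ± 0.04 in THP1, alike in size and opposite in sign. By edgeR, the THP1 change was not called (adjusted P = 0.091). The Molm13 change was called by edgeR (adjusted P = 0.031) but not by DESeq2 (adjusted P = 0.20). No sample could be tested as an outlier with 2 libraries per group.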

How the results depend on the processing

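With 2 libraries per group, few counts of PRMT9 after knockdown and lines held in separate tables, the calls of PRMT1 in THP1 and of CARM1 and PRMT7 in Molm13 rest on single libraries and on the test, whereas PRMT1 in Molm13 was called in 10 of 10 alternatives. In Molm13, 6 members in place of 8 were called with DESeq2 (CARM1 and PRMT7 lost), beside 8318 of all 16446 genes. Without shCtrl library 2, the value was -0.08 for CARM1 and 0.08 for PRMT7. In THP1, 1 member in place of 2 was called under 4 settings (PRMT9 kept, PRMT1 lost). These were library size alone (6262 of 16294 genes called), no filter on low counts (5568 of 32584), DESeq2 (4246 of 16294) and the replicate block (6054 of 16294). The fit of all 8 libraries called 5 members (PRMT2, CARM1 and PRMT7 added), beside 6487 of 19288 genes. When each library was left out in turn, the value of PRMT1 ran from 0.06 to 0.12. Members called DEG in Molm13 numbered 2 in place of 4 with a fold limit of 2 (PRMT9 and PRMT2). The share of all genes at this limit is not given here. PRMT1 ranked 1 in both lines in place of 2 with the length of the principal transcript. Deviations of same-numbered libraries showed no positive correlation (-0.087 in Molm13 and -0.015 in THP1). Counting noise weakens such a correlation, so a pairing of the libraries by number was not excluded. Besides PRMT1 in THP1, the replicate block ended the call of PRMT5 in the baseline comparison (-0.08, adjusted P = 0.097). No value with a call reversed in direction, and 429 of 472 alternative values stayed on the same side of their threshold or within 1.5 times the count.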
